A study of Rattus norvegicus with 458 samples.

Results

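The myomiRs are microRNAs (miRNAs) of striated muscle, and those described here belong to the miR-1, miR-206 and miR-133 families. The members were taken from the deposited tables of read counts by name: miR-1-3p, miR-1a-3p, miR-1, miR-206-3p, miR-206-5p, miR-133a-3p, miR-133a-5p and miR-133b-3p, and every joined name that holds one of them because a read sequence fitted more than 1 miRNA, with precursors left out. Of the 7534 names in the table of miRNA names, 18 were members with a count. In heart, soleus and biceps femoris these names covered 3407 different read sequences, which were used to describe the ends of the mature miRNAs.

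The counts came from small RNA sequencing of 23 tissues of naive Sprague Dawley rats aged 12 to 13 weeks, sequenced in 458 runs. All tissues but dorsal root ganglion came from 10 numbered rats, 5 males (rats 2 to 6) and 5 females (rats 7 to 11). Each of these rats gave each of these tissues, except that testis came from the 5 males and ovary and uterus from the 5 females. Dorsal root ganglion was 10 libraries made from 2 pools, so these libraries are not separate animals. The labels name a male and a female pool without rat numbers. No group carried a treatment or an engineered allele, and each striated muscle was represented by 10 rats. Heart, soleus and biceps femoris were whole tissues that also hold blood, vessel and nerve, and in such bulk RNA fewer cells of a type and less RNA per cell cannot be told apart.

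miR-1 and miR-133a are made together from shared transcripts in heart and skeletal muscle, under the control of muscle transcription factors such as SRF, MEF2 and, in skeletal muscle, MyoD. miR-206 and miR-133b form a separate pair known mainly from skeletal muscle. miR-1 and miR-206 are known for promoting the differentiation of muscle cells, and miR-133 for a part in their proliferation and for restraining SRF. Soleus is a slow-twitch postural muscle, and biceps femoris of the rat is a mostly fast-twitch muscle of the hindlimb.

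The mature sequences of the first seed family are shown because the miR-1 names differed by single letters that decided which name a read received. They come from RefSeq (assembly GRCr8), 5′ to 3′, with the seed (bases 2 to 8) in capitals. miR-1-3p lies at chr18:2160339-2160360 on the minus strand, miR-1b at chr3:187864736-187864757 on the plus strand and miR-206-3p at chr9:30590747-30590768 on the plus strand.
miR-1-3p: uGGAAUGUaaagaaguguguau
miR-1b: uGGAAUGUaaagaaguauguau
miR-206-3p: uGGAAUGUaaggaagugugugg
All 3 share the seed GGAAUGU. Counted from the 5′ end, miR-1b differed from miR-1-3p by G17A alone, and miR-206-3p differed from miR-1-3p by A11G, A21G and U22G. miR-1b was not itself a name in the count table. The member that joins a precursor predicted by the authors on chromosome 3 to miR-1-3p had these letters as its most counted sequence, with 245821 counts or 80.8% of that name's placed reads in striated muscle, and it is called the chr3 form below. The sequence printed for miR-1-3p made up 74.5% of the reads of the miR-1-3p name, with 106656 counts.

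The second seed family, miR-133, is shown because its forms differed at the last base and because its reads began at more than 1 position. miR-133a-3p lies at chr18:2157886-2157907 and miR-133a-5p, the other arm of the same hairpin, at chr18:2157923-2157944, both on the minus strand. miR-133b-3p lies at chr9:30594629-30594650 and its other arm, miR-133b-5p, which was not a member, at chr9:30594592-30594612, both on the plus strand.
miR-133a-3p: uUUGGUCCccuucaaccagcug
miR-133b-3p: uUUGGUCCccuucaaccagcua
miR-133a-5p: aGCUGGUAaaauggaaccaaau
miR-133b-5p: gCUGGUCAaacggaaccaagu
The 3p arms share the seed UUGGUCC and differed by G22A, so that a miR-133a-3p read whose last base was read or written as A carries the letters of miR-133b-3p and cannot be told apart from it. The 5p arms have different seeds. For miR-206-5p, the other arm of miR-206, no mature sequence was held in the RefSeq table, and its most counted read, with 65 counts, is printed with bases 2 to 8 in capitals.
miR-206-5p, most counted read: aCATGCTTctttatatcctcata

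In the RefSeq annotation the hairpins of Mir133a1 and Mir1 stood 2368 bases apart inside the span of the protein-coding gene Mib1 (chr18:2075309-2199774). Each of them overlapped a further annotated miRNA hairpin, Mir3582 at Mir133a1 and Mir3571 at Mir1. Mir206 and Mir133b stood 3801 bases apart inside the span of the long non-coding RNA gene LOC120094648 (chr9:30582052-30595926), and no other annotated gene spanned Mir1b. The table gives gene spans without exons, so exonic and intronic positions were not assigned.

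Library totals ran from 376401 to 17725805 counts with a median of 4816409, and striated muscle libraries held 2993535 to 10086504. The RNA integrity number of the striated muscle libraries was 6.9 to 8.5, and 6 of the 30 libraries had been extracted again. Across names above a low mean level, 10 libraries had a median correlation with another tissue more than 0.05 above that with their own label. They were 4 of 10 from duodenum, 3 of 10 from hippocampus, 1 of 10 from adrenal, and 1 of 5 each from ovary and uterus. None came from striated muscle. Values of these tissues are given as labelled, and again without those libraries where that moved them. In 3 striated muscle libraries (heart of rat 3, soleus of rat 8 and biceps femoris of rat 10) the runs of 1 flow cell lane stood apart: between 9.67% and 96.1% of the reads of a member began 1 base early there, against 0 to 4.35% in the other runs of the same libraries. Levels below include that lane and are repeated without it where it matters, and all read ends were taken without it. Names typical of blood summed to 34322 to 93055 CPM (counts scaled to 1000000 per library) in heart, 26447 to 64337 in soleus and 34023 to 73719 in biceps femoris, against 801241 to 905396 in whole blood. Nearly all of these sums was the joined name of miR-3107-5p and miR-486-5p, which also stands on the list of muscle miRNAs, at 33740 to 91880, 26379 to 64235 and 33947 to 73574 CPM. miR-451-5p and miR-144-3p, which are made in red blood cells, summed to 499 to 1175 CPM in heart, 68.2 to 137 in soleus and 59.2 to 145 in biceps femoris, against 2368 to 9169 in whole blood. Smooth muscle names summed to 72462 to 96755, 46169 to 86708 and 26252 to 62315 CPM in the same order, and epithelial names to 479.8 to 735, 529 to 1237 and 379 to 556. miR-124-3p, the 1 of 2 listed nerve names found in the table, reached at most 31.2 CPM in striated muscle against 13081 over all tissues, and miR-122-5p of liver at most 8.82 against 40363. The endothelial names miR-126-3p and miR-126-5p summed to at most 1.16 CPM in any library of any tissue, so they could not register endothelium here. The part of these cells in the member levels was not tested.

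The members took up a large part of every striated muscle library. They made up 27.6% to 33.6% of all counts in biceps femoris, 22.1% to 27.1% in soleus and 12.4% to 14.5% in heart, and these 3 ranges did not overlap. miR-133a-3p alone held 34304180 counts or 96.4% of the member counts, and 98.4% of its counts came from the 3 striated muscles. The joined name of miR-133a-3p and miR-133b-3p held 557843 counts and the chr3 form 324352. miR-1-3p followed with 152197 counts, miR-206-3p with 104516, miR-1a-3p with 50311, miR-133a-5p with 45146, miR-133b-3p with 27646 and miR-1 with 3368. The other 9 names were rare, from 1 to 943 counts, with miR-206-5p at 124. The share of a name's counts that came from striated muscle was at least 96.0% for all 18 names. Of the 18 names, 17 had a count in soleus, 17 in biceps femoris, 15 in heart and 8 to 14 in any other tissue.

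Levels are given as CPM of all counts in a library, as the lowest, median and highest rat. miR-133a-3p, the dominant strand of its hairpin, measured 267350, 282357 and 325779 CPM in biceps femoris, 210507, 233993 and 260500 in soleus, and 120667, 137234 and 140839 in heart. The 3 muscles were ordered with no overlap between biceps femoris and soleus or between soleus and heart. Glandular stomach was the next tissue at 880, 2479 and 8923 CPM, far below heart, and the non-glandular stomach reached 547, 1390 and 6515. Medians then fell from 932 CPM in brainstem through 707 in dorsal root ganglion, 577 in ovary, 509 in ileum and uterus, 465 in testis, 418 in duodenum and 385 in jejunum. The lowest medians were 202 in cerebrum, 143 in hippocampus, 111 in pancreas, 80.9 in cerebellum, 57.1 in liver, 56.8 in kidney medulla, 51.4 in whole kidney, 47.6 in kidney cortex, 42.2 in adrenal and 32.0 in whole blood. Without the libraries closest to another tissue the medians were 573 in duodenum and 108 in hippocampus, and 579, 515 and 39.6 in ovary, uterus and adrenal. Single libraries stood far above their tissue, such as rat 6 in whole blood at 3045 CPM and rat 3 in liver at 1242.

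miR-133a-5p, the passenger arm, followed the same order at a much lower level, with 300, 355 and 423 CPM in biceps femoris, 237, 332 and 367 in soleus and 148, 182 and 214 in heart. Biceps femoris and soleus overlapped, and both stood above heart. miR-133b-3p, the partner of miR-206, measured 142, 299 and 1283 CPM in soleus, 76.9, 99.5 and 792 in biceps femoris and 12.7, 18.8 and 226 in heart. The 3 highest values came from the 3 libraries with the early reads, and without that lane the ranges were 142 to 500, 76.9 to 129 and 12.7 to 58.3, which do not overlap.

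miR-1-3p, the mature form of Mir1, measured 995, 1319 and 1760 CPM in biceps femoris, 829, 983 and 1221 in soleus and 433, 554 and 682 in heart. Heart stood below both skeletal muscles in every rat's library, while biceps femoris and soleus overlapped. The chr3 form was higher than miR-1-3p in each muscle, at 1474, 2469 and 3027 CPM in biceps femoris, 1321, 2145 and 2989 in soleus and 1175, 1390 and 1642 in heart. These 3 ranges overlapped. The lowest value of each skeletal muscle came from a library with the early reads, and without that lane the ranges were 2087 to 3027, 1766 to 2989 and 1175 to 1984 CPM, so that heart and biceps femoris did not overlap. The heart of rat 3 moved from 1235 to 1984 CPM. In the glandular stomach miR-1-3p reached 0.763, 7.77 and 33.1 CPM and the chr3 form 16.2, 50.1 and 133. miR-1a-3p, the mouse name for miR-1, had medians of 367 CPM in soleus, 239 in biceps femoris and 137 in heart. Its highest values, 990, 1265 and 942 CPM in the same order, came from the 3 libraries with the early reads. Without that lane its ranges were 233 to 506, 160 to 501 and 116 to 300 CPM. The name miR-1 had medians of 39.8, 13.8 and 12.9 in that order.

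miR-206-3p, the skeletal muscle member of the miR-1 seed family, had another order. It measured 1341, 1724 and 2065 CPM in soleus and 193, 301 and 460 in biceps femoris, with no overlap. Heart was at 0, 0.236 and 0.531 CPM, with a median below those of the cerebellum at 13.8, 19.9 and 22.8, the glandular stomach at 0.169, 15.3 and 59.0, the non-glandular stomach at 0, 5.75 and 42.5, and the cerebrum at 0.617, 2.32 and 7.22. In cerebellum miR-133b-3p had a median of 1.87 CPM and the joined name of miR-133a-3p and miR-133b-3p one of 32.8, beside 80.9 for miR-133a-3p, while in pancreas these medians were 0, 2.22 and 111.

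**Figure D1:**
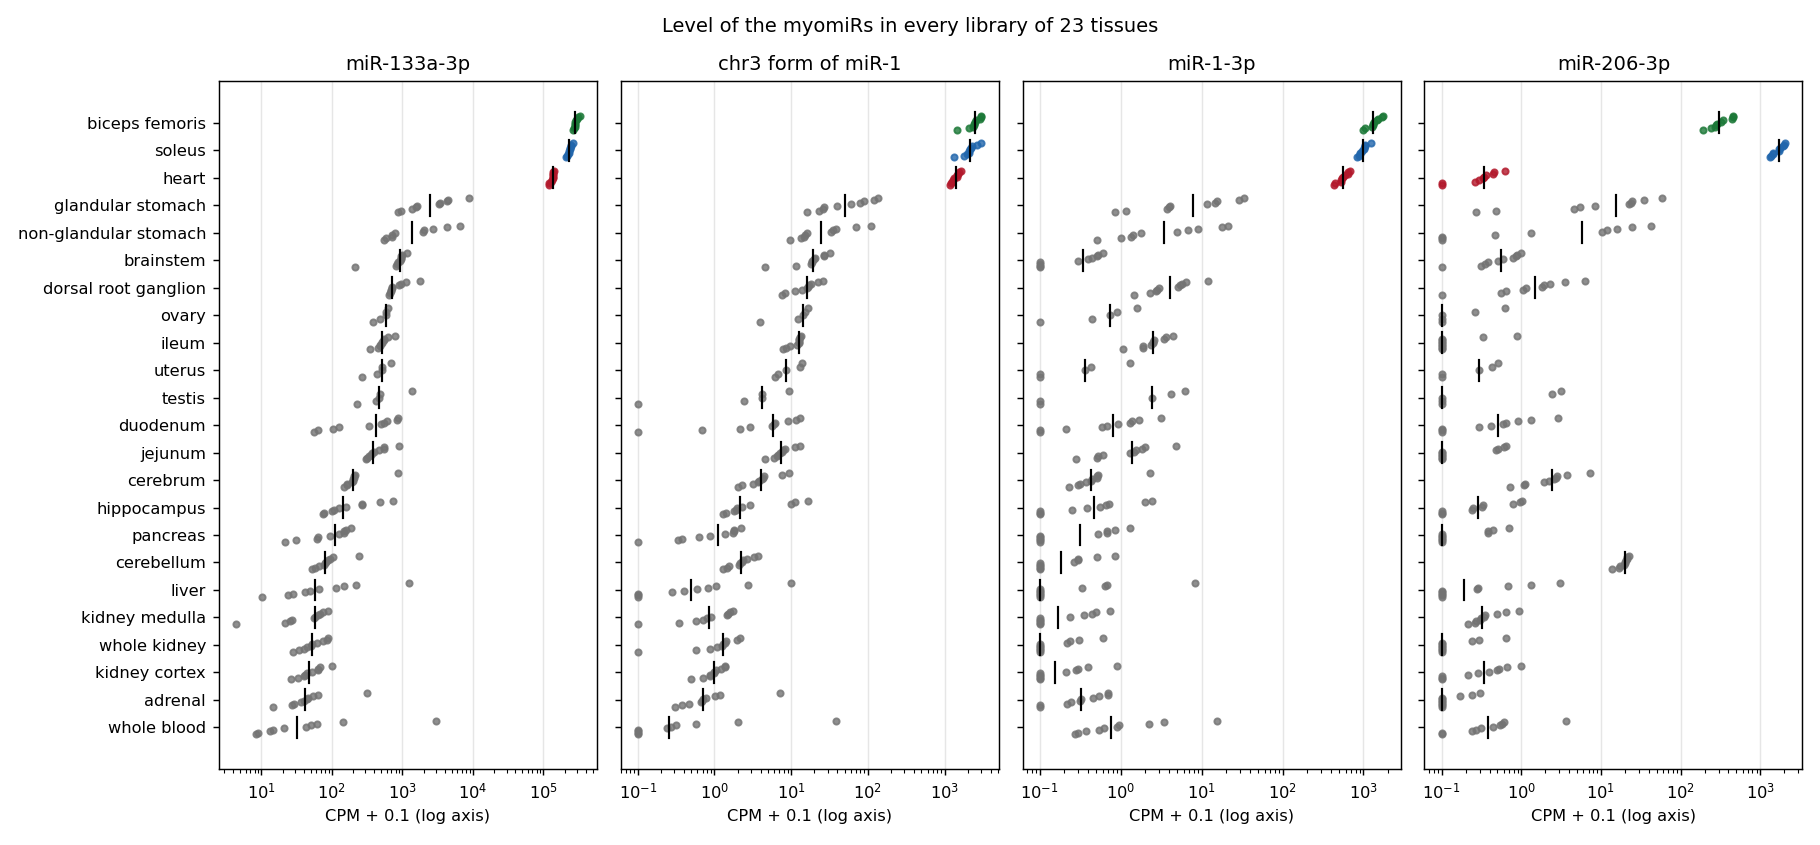
Level of miR-133a-3p, the chr3 form of miR-1, miR-1-3p and miR-206-3p in each of the 23 tissues, as CPM plus 0.1 on a log axis, with 1 point for each library under its labelled tissue and a black bar at the median (biceps femoris green, soleus blue, heart red, other tissues grey). The 3 striated muscles stand above every other tissue for the first 3 names, while for miR-206-3p heart, with a median of 0.236 CPM, lies far below soleus at 1724 and biceps femoris at 301.

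Neighbouring tissues in the order of medians were compared with permutation tests on log2(CPM + 1), two-sided, for 6 names and 22 tissues without dorsal root ganglion, with Benjamini-Hochberg adjustment over the 126 pairs. In 19 pairs the neighbours differed beyond the spread between rats, and in the other 107 they did not. For miR-133a-3p the order biceps femoris, soleus, heart, glandular stomach held at each step, with log2 differences of 0.31, 0.81 and 5.80 and an adjusted permutation p of 0.000344 at each. For miR-1-3p the same steps were 0.47 (adjusted p = 0.00225), 0.82 and 6.09 (both adjusted p = 0.000344). For the chr3 form biceps femoris and soleus did not differ beyond their spread, and soleus stood above heart by 0.62 (adjusted p = 0.000872) and heart above glandular stomach by 4.79. miR-206-3p was higher in soleus than in biceps femoris by 2.40, in biceps femoris than in cerebellum by 3.98 and in cerebrum than in brainstem by 1.13, and no other neighbours differed. miR-133b-3p was higher in soleus than in biceps femoris by 1.4 (adjusted p = 0.0201), in biceps femoris than in heart by 2.17 (adjusted p = 0.00496) and in heart than in glandular stomach by 2.89. miR-133a-5p was higher in soleus than in heart by 0.80 and in heart than in glandular stomach by 5.15. Jejunum stood above cerebrum for miR-133a-3p (0.99). For the chr3 form cerebrum stood above cerebellum by 0.69, a call lost without the lane of early reads (0.54, adjusted permutation p = 0.354), and hippocampus above whole kidney by 1.14, a call lost without the 3 hippocampus libraries closest to another tissue (0.47, adjusted exact permutation p = 0.147). With that lane or all 10 such libraries left out, 18 pairs differed.

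The distance of the striated muscles from the 20 other tissues was fitted with edgeR's quasi-likelihood test on the counts of all tissues and 1641 names, 14 of them members, with Benjamini-Hochberg adjustment over all names. The 4 other names, all rare joined ones, did not pass the filter on low counts. Since nearly all counts of a member lay in striated muscle, the 14 passed through those tissues, and the count of higher members is a description. All 14 were higher in soleus, where 19.9% of all names were, all 14 in biceps femoris (19.1% of all names) and 12 in heart (27.5%). Without the 10 libraries closest to another tissue the counts were again 14, 14 and 12. Their median log2 difference was 9.17, 8.93 and 7.43 for soleus, biceps femoris and heart, beside -0.32, -0.32 and 0.19 over all names. miR-133a-3p was higher by 9.87 on the log2 scale in biceps femoris (SE 0.398, adjusted p = 3.2e-59), 9.50 in soleus (SE 0.392, adjusted p = 5.7e-58) and 9.15 in heart (SE 0.386, adjusted p = 1.9e-56). miR-1-3p was higher by 10.7, 10.2 and 9.84 and the chr3 form by 8.91, 8.67 and 8.48 in the same order. miR-206-3p was higher by 11.4 in soleus and 9.01 in biceps femoris, and it measured -0.86 in heart (SE 0.654, adjusted p = 0.36). With DESeq2 the heart value was -1.54 with an adjusted p of 0.032. The second member not called in heart was miR-206-5p, which had no count in any heart library. Other scalings moved the median of all names, for example in biceps femoris from -0.32 to -0.21 with TMM, and changed no direction of miR-133a-3p, miR-1-3p or the chr3 form. Of the names called in heart 76.4% were higher, but 60.7% with TMM and 34.8% with DESeq2, and in soleus 62.3%, but 50.4% with DESeq2.

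Soleus and biceps femoris were compared to find which members differ between a slow and a fast muscle. The fit held 30 libraries and 560 names, of which 12 were members, while miR-206-5p and 5 rare joined names were too low to test. Of the 12, 2 were higher in soleus (18.4% of all names were) and 5 were lower (15.7% of all names). The median member difference was -0.11 on the log2 scale, beside -0.01 over all names. miR-206-3p was higher in soleus by 2.27 (SE 0.169, adjusted p = 1.9e-12), and every soleus library exceeded every biceps femoris library. miR-1, the rarest of the single miR-1 names with 26.8, 39.8 and 51.0 CPM in soleus against 6.34, 13.8 and 17.9 in biceps femoris, was higher by 1.48 (SE 0.179, adjusted p = 6.4e-08), again with no overlap. This name is not the whole of miR-1. Its 2 most counted sequences made up 44.8% and 36.9% of its reads. Both carried A at base 17, as miR-1b does, and C at base 22, the changed base described below. The call is therefore not separate from that later measure.

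The abundant members of the other clusters went the opposite way. miR-133a-3p was lower in soleus by a log2 difference of -0.45 (SE 0.0891, adjusted p = 0.00017), miR-1-3p by -0.61 (SE 0.122, adjusted p = 0.00018) and miR-133a-5p by -0.31 (SE 0.103, adjusted p = 0.019). In a fit that shared 1 estimate of spread over all 23 tissues, 0 of 14 members were called lower (miR-133a-3p -0.36, adjusted p = 0.92), while miR-206-3p was higher by 2.34 (adjusted p = 0.00266). Without rat 8 the call for miR-133a-5p was lost (-0.25, adjusted p = 0.0527) and 3 of 12 members were lower. The 2 other members called lower were rare joined names of the chr3 form, at -0.74 (adjusted p = 0.0019) and -0.90 (adjusted p = 0.046).

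The remaining 5 members did not pass the test. The chr3 form measured -0.32 (adjusted p = 0.078), but it was called lower without the lane of early reads (-0.36, adjusted p = 0.0146), with DESeq2 (-0.36, adjusted p = 0.028), with TMM scaling (-0.35, adjusted p = 0.042), in flow cell D1GBMACXX alone (-0.79, adjusted p = 9.7e-05), without rat 10 (-0.43, adjusted p = 0.0152) and without rat 3 (-0.37, adjusted p = 0.0427). miR-133b-3p measured 1.11 (SE 0.531, adjusted p = 0.110). It was called in flow cell D1GBMACXX alone (1.12, adjusted p = 0.00022), without the lane of early reads (1.4, adjusted p = 3.7e-06), without rat 10, whose biceps femoris library held that lane (1.87, adjusted p = 0.0035), and with the rat as a block (1.25, adjusted p = 0.030). miR-1a-3p measured 0.16 (adjusted p = 0.81), or 0.61 with DESeq2 (adjusted p = 0.039), and the joined name of miR-133a-3p and miR-133b-3p 0.09 (adjusted p = 0.73), a name for reads that fitted both miR-133 forms.

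Heart was compared with each skeletal muscle to find which members are shared. Against soleus 10 of 12 members were lower in heart (30.2% of all names were), and against biceps femoris 10 of 12 (31.6%), and 0 were higher in either (37.5% and 37.3% of all names were), also with DESeq2 and at an unadjusted p under 0.05. The median member difference was -0.98 and -1.22 on the log2 scale, beside 0.14 over all names in both. miR-206-3p was the member with the widest gap, at -12.5 against soleus (SE 0.283, adjusted p = 2.1e-26) and -10.2 against biceps femoris (SE 0.269, adjusted p = 1.8e-24). With 0 to 4 counts in each heart library, miR-206-3p passed the filter on low counts through the skeletal muscles. Its place among the lower members is therefore a description. Over the 10 hearts it held 14 counts or 0.250 CPM (95% exact Poisson interval 0.137 to 0.420), against 84986 counts in soleus, 16412 in biceps femoris and 939 in cerebellum. The pooled level was 6667 times that of heart in soleus (3973 to 12195), 1322 times in biceps femoris (788 to 2418) and 76.6 times in cerebellum (45.4 to 141). These intervals cover counting error only.

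miR-206-5p and miR-133b-5p, the passenger arms of that pair, had no count in heart. A floor of 3 counts over the 10 hearts is 0.0536 CPM, and the upper exact Poisson limit for no count was 0.0659 CPM. miR-206-5p had 107 counts in soleus, 39.2 times that floor, and 12 in biceps femoris, 4.51 times the floor. miR-133b-5p had 385 and 66 counts, 141 and 24.8 times the floor. These ratios leave out counting error and are not lower bounds. For miR-206-5p the exact Poisson interval in biceps femoris was 0.125 to 0.422 CPM. Between soleus and biceps femoris the ratios of pooled levels were 8.69 (4.77 to 17.3) for miR-206-5p and 5.68 (4.37 to 7.49) for miR-133b-5p, with counting intervals only. miR-133b-3p itself was lower in heart by -3.13 against soleus (SE 0.571, adjusted p = 1.4e-05) and by -2.02 against biceps femoris (adjusted p = 0.0016). Its joined name with miR-133a-3p was at -1.98 (adjusted p = 1.9e-12) and -1.89 (adjusted p = 4.2e-12).

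The names of miR-1 and miR-133a, which heart also makes in quantity, had smaller log2 differences. miR-133a-3p was lower in heart by -0.68 against soleus (adjusted p = 5e-08) and -1.13 against biceps femoris (adjusted p = 7.3e-13), and its passenger arm by -0.68 and -0.98. miR-1-3p was lower by -0.69 (adjusted p = 9.5e-06) and -1.30 (adjusted p = 5e-11), and the chr3 form by -0.53 (adjusted p = 0.0014) and -0.85 (adjusted p = 3.1e-06). In the fit over all 23 tissues these calls were lost (adjusted p between 0.242 and 0.906). There miR-133a-3p measured -0.35 and -0.72 against soleus and biceps femoris, miR-133a-5p -0.34 and -0.57, miR-1-3p -0.36 and -0.90 and the chr3 form -0.18 and -0.42. In that fit 6 of 14 members were lower in each comparison. Of all names called there, 66.7% against soleus and 68.5% against biceps femoris were higher in heart. miR-1 was lower against soleus by -1.60 (adjusted p = 2.1e-09) and measured -0.12 against biceps femoris (adjusted p = 0.58), or -0.40 with TMM scaling (adjusted p = 0.046). miR-1a-3p measured -0.79 (adjusted p = 0.075) and -0.63 (adjusted p = 0.16), but other settings called it. Against soleus these were DESeq2 (-1.44, adjusted p = 1.8e-08), TMM scaling (-1.02, adjusted p = 0.033), flow cell D1GBMACXX alone (-1.22, adjusted p = 6.1e-08), the rat as a block (-0.98, adjusted p = 0.017), the lane of early reads left out (-1.12, adjusted p = 1.3e-05) and rat 3 left out (-1.35, adjusted p = 0.0011). Against biceps femoris they were DESeq2 (-0.83, adjusted p = 0.0014), TMM scaling (-0.99, adjusted p = 0.037), flow cell D1GBMACXX alone (-1.13, adjusted p = 2.4e-07), that lane left out (-0.78, adjusted p = 0.0010) and rat 3 left out (-1.22, adjusted p = 0.0025). Over all names the share of calls that were higher in heart moved with the scaling, from 55.4% against soleus to 42.2% with TMM and 45.2% with DESeq2, and from 54.1% against biceps femoris to 43.9% with TMM.

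**Figure D2:**
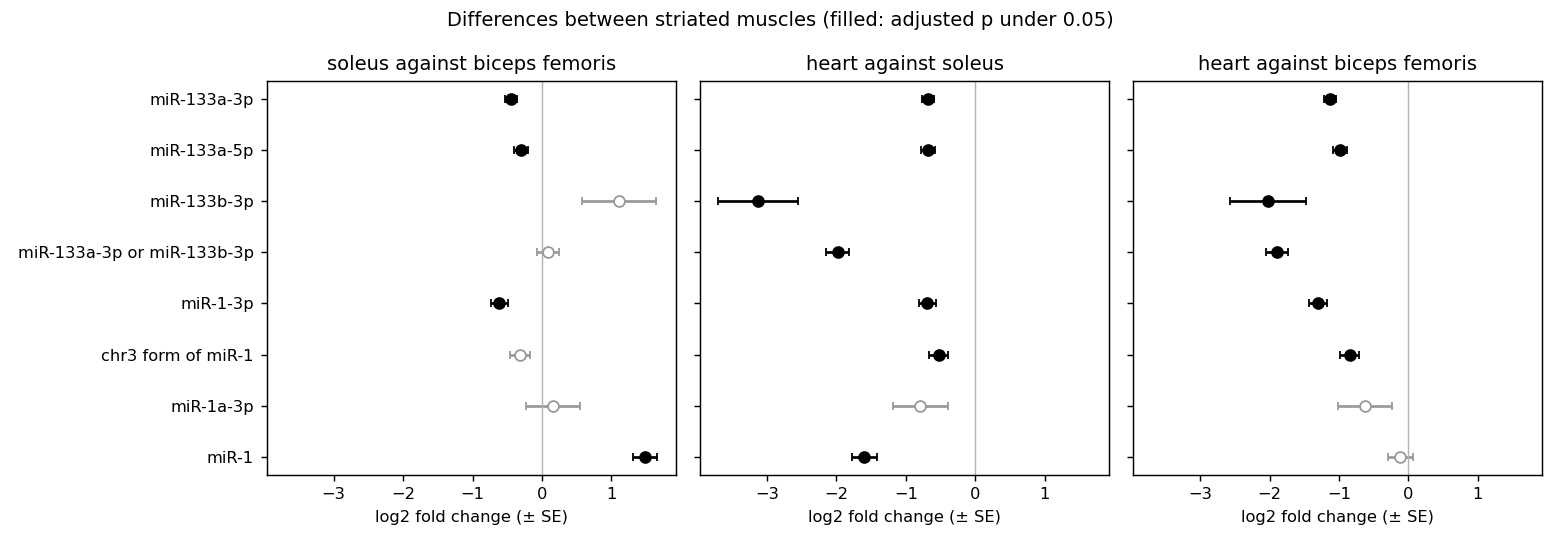
Log2 fold change with its standard error of 8 members in soleus against biceps femoris, heart against soleus and heart against biceps femoris, from edgeR's quasi-likelihood fit of 30 libraries, with filled points where the adjusted p was under 0.05. miR-206-3p, at 2.27, -12.5 and -10.2, is left out of the plot for its scale, and most members lie below 0 in both heart comparisons.

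The other miRNAs of the muscle list, which include the miRNAs encoded within myosin heavy chain genes, were compared in the same fit. Of 9 such names tested, 4 were higher and none lower in soleus than in biceps femoris, 3 were higher and 2 lower in heart than in soleus, and 6 were higher and none lower in heart than in biceps femoris. miR-208b-3p had medians of 3000 CPM in soleus, 465 in heart and 3.62 in biceps femoris, miR-499-5p had 1048, 879 and 16.4, and miR-208a-3p had 469 in heart and at most 6.57 in any skeletal muscle library. None of the 3 had the order of miR-133a-3p or of miR-206-3p.

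Males and females were compared within each muscle. None of the 12 members was called in heart, soleus or biceps femoris by edgeR, where between 0% and 0.536% of all names were called in either direction. At an unadjusted p under 0.05 there were 3 members in biceps femoris, 1 in heart and none in soleus. miR-133a-3p in biceps femoris measured 0.28 on the log2 scale in females against males (SE 0.118, adjusted p = 0.48), and DESeq2, which called no other member in any of the 3 muscles, called it at 0.35 with an adjusted p of 0.036. Of 36 tests for a sex difference that itself differed between muscles, 0 passed in edgeR, with a lowest adjusted p of 0.121 and 8 at an unadjusted p under 0.05.

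Read ends were compared because a shifted 5′ end changes the seed of a miRNA. For each member the share of reads that did not begin at the RefSeq start, that ended beyond the RefSeq end and that ended before it was taken per rat, over reads within 6 bases of the reference ends and with at most 1 mismatch, and 48 differences between muscles were tested with two-sided permutation tests. Of these, 28 passed the threshold after Benjamini-Hochberg adjustment. miR-133a-3p was read from a later base about as often as from its reference start, and this later form is printed with its seed in capitals because its seed is another one.
miR-133a-3p, started 1 base later: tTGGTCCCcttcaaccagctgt
It was the most counted sequence of the name, with 13539809 counts or 42.3%. Reads not at the reference start made up 50.4% ± 1.7 (SD, n = 10) in heart, 47.8% ± 1.4 in soleus and 50.1% ± 2.0 in biceps femoris, nearly all of them 1 base later (50.0%, 47.4% and 49.9% of placed reads). Soleus was lower by 2.61 percentage points against heart (adjusted permutation p = 0.00509) and by 2.39 points against biceps femoris (adjusted permutation p = 0.0118), while heart and biceps femoris differed by 0.218 points (adjusted permutation p = 0.867). The ranges of the 3 muscles overlapped. At the 3′ end, 93.3% of the reads in heart, 91.9% in soleus and 91.1% in biceps femoris ran past the reference end.

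miR-133b-3p showed the widest differences at the 5′ end. The share of reads not at the reference start was 44.6% ± 14.1 (SD, n = 10) in heart, from 32.9% to 82.3%, then 23.0% ± 4.5 in biceps femoris, from 18.3% to 33.8%, and 11.9% ± 1.1 in soleus, from 10.5% to 13.6%. Soleus lay below the other muscles without overlap, and the lowest heart overlapped the highest biceps femoris. All 3 differences passed the test (adjusted permutation p = 0.000213 each), but the heart values rested on 10 to 254 counts per rat, and in the runs of flow cell D1GBMACXX alone heart exceeded biceps femoris by 9.48 points with an adjusted permutation p of 0.159. With the lane of early reads put back, the calls of soleus and of heart against biceps femoris were lost, at differences of -10.7 and 18.8 points (adjusted permutation p = 0.652 and 0.20). The miR-133b-3p share of miR-133a-3p and miR-133b-3p together ran the other way, with means of 0.0317% in heart, 0.0587% in biceps femoris and 0.169% in soleus, and the part of miR-133a-3p reads with another last base in these values was not tested. Heart and soleus differed in that share (adjusted permutation p = 0.00224), and without the lane of early reads all 3 muscles did. Soleus against biceps femoris also passed without rat 10 (0.138 points, adjusted permutation p = 0.000288) and heart against biceps femoris without rat 3 (-0.0438 points, adjusted permutation p = 0.0117).

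miR-1-3p began at its reference start in nearly every read, with 0.910% of reads away from it in heart, 1.41% in soleus and 1.45% in biceps femoris. miR-133a-5p had 11.3% ± 0.8 in heart, 15.5% ± 1.6 in soleus and 17.2% ± 1.8 in biceps femoris, and heart was lower than both (adjusted permutation p = 0.000528 and 0.000213). With the lane of early reads put back these differences were -3.83 and -5.22 points and not called (adjusted permutation p = 0.652 for both). For soleus against biceps femoris the difference of -1.76 points had an adjusted permutation p of 0.0533, or 0.0208 with the rat as a block, and 0.0384 to 0.0494 without rat 2, rat 7 or rat 8. The chr3 form ended before the reference end in 12.7% ± 1.2 of reads in heart, 15.4% ± 1.6 in soleus and 11.1% ± 0.7 in biceps femoris, and all 3 differences passed. For miR-206-3p, compared only between soleus and biceps femoris, 0 of 3 end measures passed the permutation test, and 1 had an unadjusted p under 0.05. That measure, reads ending before the reference end, had an adjusted permutation p of 0.0738, or 0.025 with the rat as a block. Without rat 10, whose biceps femoris held 99 counts of miR-206-3p, this measure (-1.16 points, adjusted permutation p = 0.00148) and the 5′ measure (-0.923 points, adjusted permutation p = 0.00285) passed.

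The last base of miR-1 set soleus apart from the other muscles. This measure was chosen after seeing the data. The sequences that carried U22C in the 2 miR-1 forms are printed with the seed and the changed base in capitals, and the second was the most counted sequence of the miR-1a-3p name, at 45.1% of its reads.
miR-1-3p with another last base: tGGAATGTaaagaagtgtgtaC
miR-1b with another last base: tGGAATGTaaagaagtatgtaC
They held 10290 and 17376 counts. The share ending in C was taken over the reads of 22 bases of each form that ended in U or C. Reads with any other last base were left out, such as the Mir1b form ending in A (6977 counts, 18.1% of the miR-1a-3p name). For the form with the letters of Mir1 the share was 15.0% ± 1.5 (SD, n = 10) in soleus, 5.90% ± 1.02 in biceps femoris and 5.49% ± 0.83 in heart. For the form with those of Mir1b it was 10.4% ± 1.3, 3.96% ± 0.67 and 4.68% ± 0.53 in the same order. The lowest soleus rat, at 12.2% and 7.32%, exceeded the highest rat of the other muscles, at 8.14% and 5.28%. Soleus differed from both muscles in both forms (adjusted permutation p = 4.5e-05 each), by 9.08 and 6.49 percentage points against biceps femoris. Heart and biceps femoris differed by -0.409 points in the Mir1 form (adjusted permutation p = 0.344) and by 0.726 points in the Mir1b form (adjusted permutation p = 0.0195, or 0.0563 with the rat as a block, and 0.0552 to 0.0654 without rat 5, rat 6 or rat 9).

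**Figure D3:**
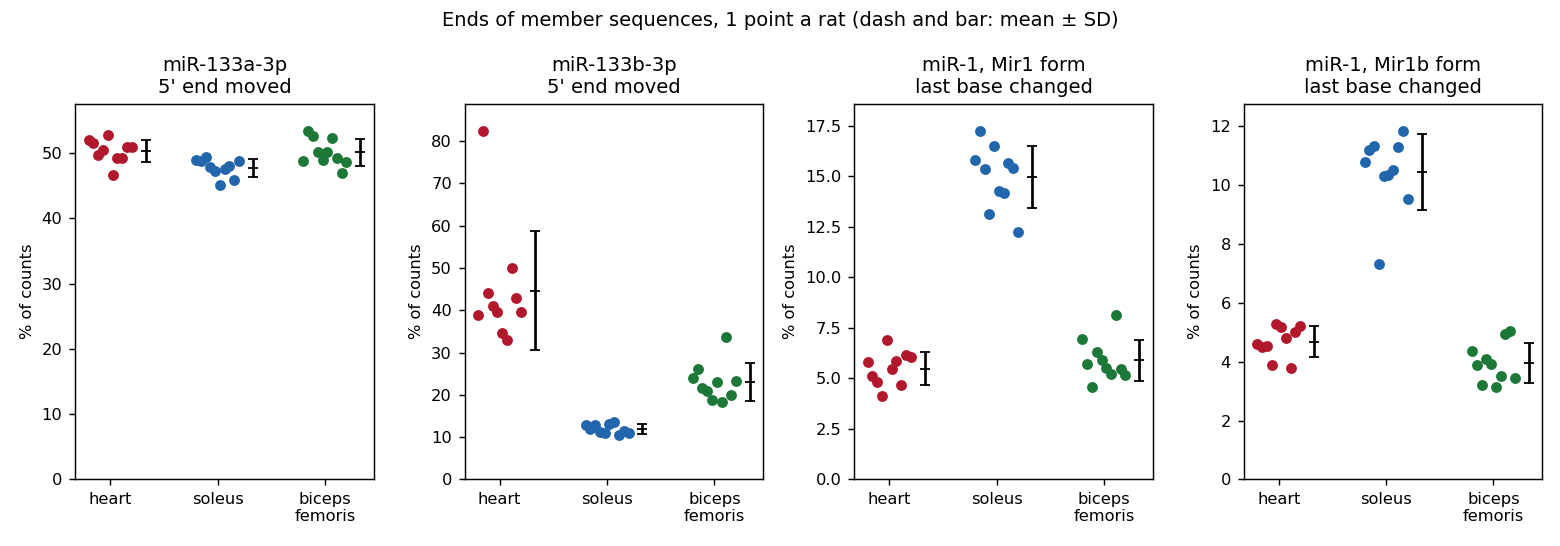
Share of reads, in % of counts, with a 5′ end away from the reference start for miR-133a-3p and miR-133b-3p and with another last base for both miR-1 forms, with 1 point for each rat and a dash and bar for the mean ± SD of 10 rats. miR-133a-3p lies near 50% in all 3 muscles, miR-133b-3p is lowest in soleus at 11.9%, and the changed last base is highest in soleus at 15.0% and 10.4%.

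The miR-1 reads were divided between the names of Mir1 and the chr3 form differently by tissue. This measure, too, was chosen after seeing the data. miR-1-3p made up 36.0% ± 6.0 (SD, n = 10) of both names together in biceps femoris, 31.9% ± 5.2 in soleus and 28.9% ± 2.6 in heart, with overlapping ranges of 25.9% to 47.5%, 22.9% to 40.8% and 23.0% to 31.0%. The highest values of both skeletal muscles came from libraries with the early reads. Without that lane the shares were 34.8% ± 4.4, 30.8% ± 4.2 and 27.9% ± 4.7, with ranges of 25.9% to 39.8%, 22.9% to 35.4% and 16.5% to 31.0%, and the heart of rat 3 fell from 26.0% to 16.5%. Heart minus biceps femoris was -7.13 percentage points (adjusted permutation p = 0.00576), or -6.85 without the lane (adjusted permutation p = 0.00678). The other 2 differences had an adjusted permutation p of 0.119, and with the rat as a block 0.0449 for soleus against biceps femoris and 0.0352 for heart against soleus.

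Outside striated muscle the share was lower in most tissues with enough reads. Pooled over libraries, with 95% Wilson intervals for counting error only, it was 15.4% (14.3% to 16.4%) in glandular stomach, 15.6% (14.3% to 16.9%) in non-glandular stomach, 9.87% in cerebrum, 8.04% in cerebellum, 4.65% (2.79% to 7.65%) in ovary, 2.49% (1.15% to 5.32%) in uterus and 1.14% (0.637% to 2.03%) in brainstem. Hippocampus was at 8.60% (5.85% to 12.5%) as labelled and at 20.5% (13.0% to 30.8%) without its 3 libraries closest to another tissue, and uterus without its 1 such library at 1.35% (0.459% to 3.88%). Brainstem, with 11 reads of miR-1-3p against 955 of the chr3 form, was the tissue with the lowest share. Liver at 40.0% (31.1% to 49.6%) and whole blood at 38.1% (33.7% to 42.8%) stood near the striated muscles, and most of their reads came from few libraries. Each striated muscle was compared with 10 tissues in which at least 5 libraries held 10 reads of both names together, and 29 of these 30 permutation tests passed. The exception was heart against hippocampus (difference 10.7 points, adjusted exact permutation p = 0.0839), and 9 tissues had too few reads to test. Without the libraries closest to another tissue hippocampus and uterus fell short of 5 libraries, and all 24 remaining tests passed. Without the lane of early reads uterus fell short, and 26 of 27 tests passed.

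**Figure D4:**
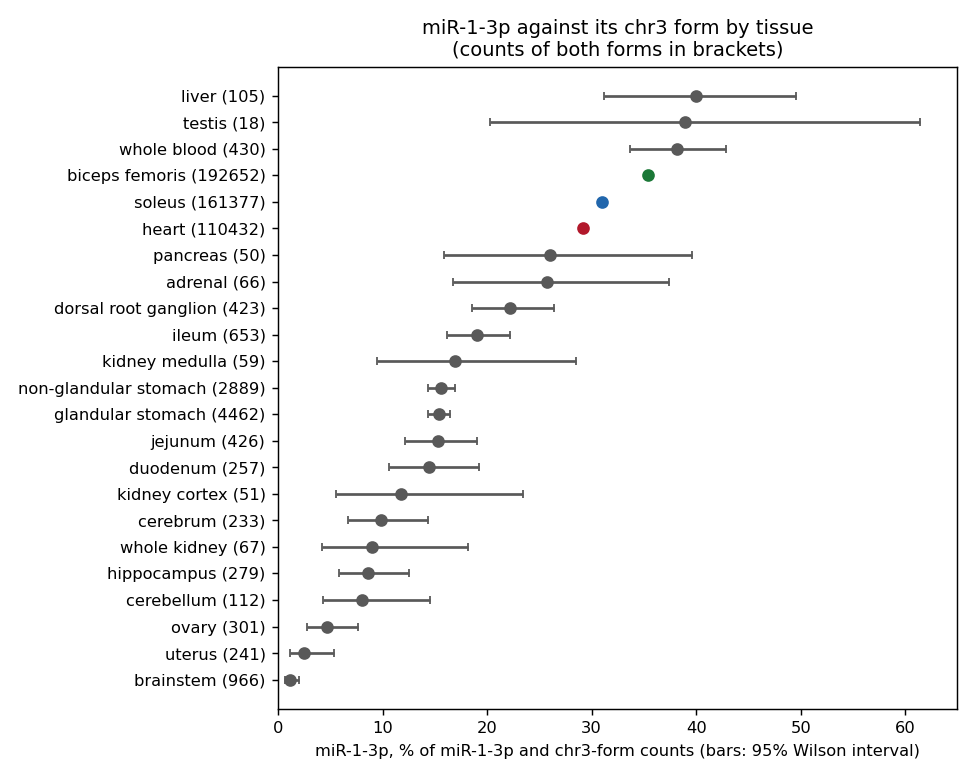
Share of miR-1-3p among the reads of miR-1-3p and the chr3 form in each tissue, in % of counts pooled over libraries, with 95% Wilson intervals and the number of reads in brackets, all libraries under their labelled tissue. The striated muscles lie at 29.1% to 35.4%, the stomach near 15% and brainstem at 1.14%.

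Within the striated muscles 2 rats stood apart in this share, which was noticed in the values themselves and is given as a description without a test. By sequence, the Mir1 form made up 19.6% of both forms in the heart of rat 2 and 15.4% in that of rat 3, and 26.7% to 28.9% in the other hearts. In soleus the same rats had 21.1% and 20.4% against 27.5% to 32.1%, and in biceps femoris 26.8% and 23.9% against 31.6% to 38.2%. All 3 muscles of both rats were thus below the other 8 rats. By name, the order held in the runs of flow cell D1GBMACXX alone, with 21.5% and 16.5% in heart against 27.6% to 32.4%. It also held in soleus and biceps femoris in the runs of the other flow cells. For the heart of rat 3 the D1GBMACXX reads were all that remained without the lane of early reads, so its 16.5% is not a separate value. In heart in those runs these rats had 23.3% and 29.1% against 28.4% to 31.1%, and the value of rat 3 there came wholly from the lane of early reads. Outside striated muscle the pooled shares of rats 2 and 3 were 11.9% and 12.7%, or 13.0% and 12.7% without the libraries closest to another tissue, within the 10.6% to 17.9% of the others.

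**Figure D5:**
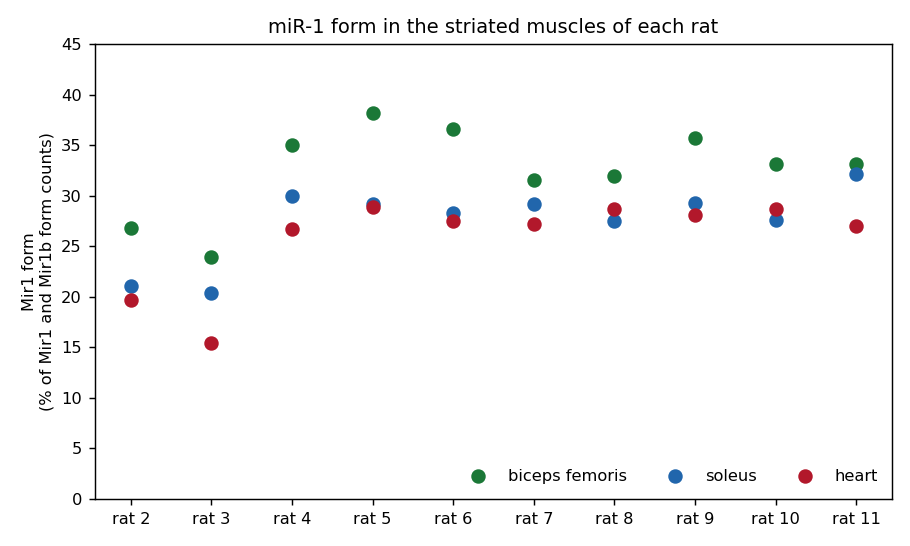
Share of the Mir1 form among the reads of both miR-1 forms, in % of counts, in biceps femoris, soleus and heart of each rat, with 1 point per library. Rats 2 and 3 have the lowest point of each muscle, at 19.6% and 15.4% in heart.

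The partners of a cluster were compared across the rats of a muscle. Of 5 relations over 10 rats, 0 passed the threshold, and 0 had an unadjusted permutation p under 0.05. The highest Pearson's r was 0.554 for miR-1-3p with miR-133a-3p in biceps femoris (Spearman's rho 0.491, adjusted permutation p = 0.474 and 0.699), and without the 2 rats farthest from the median it was 0.0154. The other 4 values of r lay between -0.145 and 0.365.

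Among 574 names with a mean of at least 10 CPM in some tissue, the names whose pattern over the 23 tissue means was most like a member were listed by Pearson's r of log2 values, as a description over tissues that share rats and sequencing runs. For miR-1-3p they were miR-378b (0.855), miR-675-3p (0.822), miR-208b-3p (0.819) and miR-486-3p (0.723). For miR-206-3p they were miR-675-3p (0.880), miR-378b (0.769), miR-483-5p (0.711) and miR-483-3p (0.679). For miR-133a-3p they were miR-208b-3p (0.774), miR-675-3p (0.764), miR-378b (0.763) and miR-483-5p (0.654). miR-675-3p, whose host is the imprinted RNA H19, had medians of 21.2 CPM in biceps femoris, 7.82 in soleus and 0.183 in heart, and was thus at a far lower level than the members it resembled. The same names in the same order led without the 10 libraries closest to another tissue.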

How the data were processed

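Small RNA libraries of 23 rat tissues were sequenced as single reads, and the authors deposited raw counts, 1 column per run, at the level of miRNA names and of single read sequences (isomiRs). They trimmed adapters with cutadapt 1.4.1 and assigned reads with the miRDeep2 quantifier to miRBase hairpins, rat first, other species and predicted precursors later, and joined the names of miRNAs that 1 sequence fitted. The members and gene lists were chosen with earlier results of these data known. All members of the rule are named, rare joined names by their counts.

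Runs of a library were summed (444 runs), 14 repeat runs of the same lane were set aside, and dorsal root ganglion libraries were summed by pool. Of the sequence table, 64 columns of striated muscle were used and 394 columns of other tissues were not. Counts were tested with edgeR 4.0.16 (upper quartile scaling, filterByExpr, quasi-likelihood F-test, R 4.3.3), with the rats of each muscle as replicates and p-values adjusted over all names, and DESeq2 1.42.0 was an alternative. Shares and ordered levels were tested with two-sided permutation tests (written with numpy 2.4.6, 100000 resamples, exact for small groups). Counting intervals were taken with scipy 1.17.1. The replicates were separate rats, and p-values measure the spread between them. Each rat gave all 3 muscles, so the labels pair the samples: deviations of the same rat correlated with a median r of 0.067, 0.0893 and 0.127 over 295 names for the 3 pairs of muscles, and fits with the rat as a block are given where they change a call. On simulated counts the test recovered 99.5% of 200 names changed by 2 on the log2 scale for soleus against biceps femoris (560 names, 8 false calls) and 65% for heart against the non-muscle tissues (1641 names, 7 false calls). The simulation gave all tissues the same profile apart from these changes, all names the same dispersion, and no rat effect. These rates therefore need not hold for the real counts. Library totals set the precision, and intervals cover counting error only.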

Additional observations from a re-analysis of the deposited data

Results flagged for a closer look

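In 25 of 121 groups of members and tissues the highest or lowest library lay far from the others by Dixon's criterion, which chance meets in about 1 in 20 groups. The ranges in brackets are those of the other libraries of the tissue.

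For the level of miR-133a-3p these were adrenal of rat 8 at 312 CPM (14.6 to 62.6), brainstem of rat 9 at 214 (799 to 1154), cerebellum of rat 5 at 245 (51.6 to 104), cerebrum of rat 8 at 866 (146 to 213), kidney medulla of rat 11 at 4.25 (21.6 to 87.3) and whole blood of rat 6 at 3045 (8.29 to 145). In that blood library miR-208a-3p, miR-208b-3p and miR-499-5p summed to 44.9 CPM, against 0 to 1.81 in the other blood libraries, and the adrenal library of rat 8 was among those that correlated best with another tissue. miR-133a-5p was at 0 CPM in brainstem of rat 9 (1.19 to 2.43). miR-133b-3p was at 792 CPM in biceps femoris of rat 10 (76.9 to 129) and at 226 in heart of rat 3 (12.7 to 58.3), and both libraries held runs of the lane with early reads. The chr3 form of miR-1 was at 1474 CPM in biceps femoris of rat 10 (2087 to 3027) and at 3.85 in ovary of rat 11 (12.1 to 16.7), a library that correlated best with another tissue.

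For read ends, taken without that lane, the chr3 form ended beyond the reference end in 8.72% of reads in heart of rat 5 (4.41% to 6.71%), and its last base was changed in 7.32% of reads in soleus of rat 8 (9.53% to 11.8%). miR-1-3p ended beyond the reference end in 7.08% in biceps femoris of rat 10 (3.82% to 4.93%), 8.75% in heart of rat 3 (3.90% to 6.15%) and 4.72% in soleus of rat 10 (3.14% to 3.95%), and it began away from the reference start in 0.380% in heart of rat 3 (0.844% to 1.15%). miR-133a-5p in soleus of rat 10 ended early in 16.4% (22.7% to 29.7%) and began away from the start in 11.8% (14.7% to 17.6%). miR-133b-3p ended early in 0.840% of reads in heart of rat 6 (0 in the others) and ended late in 24.7% in biceps femoris of rat 2 (at most 14.6%) and 14.3% in soleus of rat 8 (8.91% to 11.2%). Its 5′ end was moved in 33.8% in biceps femoris of rat 2 (18.3% to 26.0%) and 82.3% in heart of rat 8 (32.9% to 50.0%). miR-206-3p ended early in 6.06% in biceps femoris of rat 10 (8.76% to 10.6%). Heart of rat 3, soleus of rat 8 and biceps femoris of rat 10 kept only runs of flow cell D1GBMACXX here. They had fewer miR-1 reads than the other libraries of their muscle. The part of flow cell and read number in their values was not tested.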

How the results depend on the processing

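The numbers of members past the threshold moved by over 1.5 times under few settings. With DESeq2, 1 member was higher in females in biceps femoris and 1 (miR-206-3p) lower in heart than in the non-muscle tissues. Without a filter on low counts 2 members were higher in females in biceps femoris, 2 lower in females in heart and 2 lower in soleus than in biceps femoris. The members called by sex were miR-133b-3p and miR-1a-3p in both muscles. Each had its highest level in a library with the early reads. These were 792 and 1265 CPM in biceps femoris of rat 10, a female, and 226 and 942 in heart of rat 3, a male. The part of that lane in these calls was not tested. In the fit of all 23 tissues 6 of 14 members were lower in heart than in biceps femoris, 6 lower in heart than in soleus and 0 lower in soleus than in biceps femoris. Of the end differences, 18 passed in the runs of flow cell D1GBMACXX alone and 18 with the lane of early reads put back. Of 7 differences in the shares of hairpin arms and of miR-133b-3p, 1 passed, and 3 did with joined names added, 4 in flow cell D1GBMACXX alone and 3 without the lane.

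With the lane of early reads the 5′ difference of miR-1-3p between heart and soleus turned to 0.202 points and the early 3′ ends of miR-133a-3p in soleus against biceps femoris to 0.0055. With the most counted sequence as reference the 5′ difference of miR-133a-3p turned to 2.35 for soleus against biceps femoris and -2.54 for heart against soleus, since the reference start itself moved by 1 base. The reference end moved by 1 base too, so late 3′ ends were counted from another base. The late 3′ ends of miR-133a-3p in soleus against biceps femoris then turned to -0.0727. Without mismatched reads the late 3′ ends of miR-133b-3p in heart turned to -1.09 against soleus and -1.76 against biceps femoris. The cause of these changes in miR-133b-3p was not tested.

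With the rat as a block, 3 differences in the share of miR-1-3p and the chr3 form passed in place of 1. Further calls that changed with the block were the early 3′ ends of miR-1-3p in heart against soleus (-1.14 points, adjusted permutation p = 0.0226), the 5′ ends of the chr3 form in soleus against biceps femoris (-0.40 points, adjusted permutation p = 0.018) and the late 3′ ends of miR-133a-3p in soleus against biceps femoris (0.735 points, adjusted permutation p = 0.0568). Beside these and the values given with the results, the block changed no call where it was applied. It was not applied to the order of tissues or to the share of miR-1-3p against tissues outside striated muscle. Whether pairing by rat changes those calls was not tested.

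Leaving out 1 rat at a time gave 10 to 11 members lower in heart than in either skeletal muscle, 2 to 3 higher and 3 to 6 lower in soleus than in biceps femoris, 26 to 32 end differences, 1 to 3 arm differences, 4 to 5 differences in the last base of miR-1, 1 in the share of miR-1-3p and 0 by sex. Low counts limited miR-206-5p everywhere and miR-133b-3p ends in heart.

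Leaving out the libraries closest to another tissue, or the lane of early reads, was chosen after seeing the data for the order of tissues (18 pairs differed with either) and for the share of miR-1-3p outside striated muscle (24 of 24 and 26 of 27 tests passed).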
